A study of Homo sapiens with 18 samples.

Results

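The circadian clock is a feedback loop of transcription that runs in most human cells, cultured lines included. CLOCK, or its close relative NPAS2, pairs with BMAL1 and binds DNA elements called E-boxes. The pair switches on its own repressors, the period proteins (PER) and the cryptochromes (CRY), and other transcription factors that feed back on the loop. Luteinizing hormone (LH) is a pituitary gonadotropin, and its receptor (LHR, gene LHCGR) raises cyclic AMP in ovarian cells. Cyclic AMP is a known input to the clock through the cAMP response element (CRE), which lies in front of several of its genes.

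The 10 genes followed here were given as a list: PER2, PER3, CRY1, CRY2, CLOCK, NR1D2, BHLHE40, BHLHE41, NFIL3 and DBP. All probe sets that the array's annotation assigns to 1 of these genes alone were taken, which gave 23 of the 54675 probe sets and 10 of the 19775 genes. The rule uses no measured value, but the list was chosen with earlier results of these data known. Expression was measured with Affymetrix Human Genome U133 Plus 2.0 arrays in SKOV-3, an established human ovarian carcinoma line. There were 6 groups of 3 arrays. LHR- were SKOV-3 cells without the receptor, which the study's design names the parent line and its figure legends name mock-transfected. LHR+ were SKOV-3 cells stably transfected to express LHR, without added LH. LH was given to LHR+ cells at 50 ng/ml, and the groups LH1, LH4, LH8 and LH20 are named for the hours of exposure (1, 4, 8 or 20). Whether the LHR+ line is a single clone is not given in the sources used here. Only 1 group of LHR+ cells went without LH, so time in culture and time with LH cannot be told apart.

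All values are the deposited probe set intensities on a linear scale, and fold changes were taken on the log2(intensity + 1) scale with the moderated test of limma, fitted to all 54675 probe sets and 18 arrays. A probe set passed with a Benjamini-Hochberg adjusted p under 0.1 over all probe sets. The study's stricter criteria also ask for p under 0.05, a fold of at least 2 and no overlap between the arrays of the 2 groups. With 3 arrays against 3, an exact permutation test cannot go below a two-sided p of 0.1. Errors of intensities are SD over 3 arrays, and errors of log2 fold changes are standard errors (SE). Array medians lay between 46.9 and 57.9, and the nearest array of each of the 18 arrays belonged to its own group. The probe set for LHCGR itself read between 0.196 and 4.11 on all 18 arrays, LHR+ included. Its position relative to the transfected construct is not given, so it did not check the labels. Epithelial markers were present in every group, with a summed intensity of KRT7, KRT8, KRT18, KRT19, EPCAM, ERBB2 and PAX8 between 22312 and 35730 per array, of which EPCAM made up 41.6 to 251. The summed leukocyte markers stayed between 8.66 and 46.9, and the endothelial ones had group means between 20.9 and 43.1. The 5 stromal markers, collagen genes among them, summed to 29354 in LHR- cells and 13952 in LHR+ cells, and lumican (LUM) fell from 5117 ± 472 to 21.0 ± 4.64. PDGFRB alone of the 5 went the other way, from 96.8 ± 6.05 in LHR- to 200.1 ± 21.0 in LHR+. In LH20 the stromal sum was 20497. The part of these differences in the results below was not tested.

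The region upstream of a clock gene often carries the elements through which the loop acts on itself. The 250 bases before the annotated transcription start were read from RefSeq (GRCh38.p14) for all 10 genes, which have 15 starts. Both strands were searched for 6 motifs: the E-box CACGTG, its variant CACGTT, the D-box TTATGTAA bound by DBP and NFIL3, the CRE half-site TGACG, the full CRE TGACGTCA and the ROR element core TAGGTCA bound by NR1D2. A half-site inside a full CRE counts for both. BHLHE41 and CRY2 are shown because their main probe sets, those with the highest mean, met the study's criteria. DBP met them by its other probe set alone, and its promoter, with no match to these motifs, is not shown. PER2 and NR1D2 were picked from the members that moved between LH times, after their values were seen. CRY1, BHLHE40 and NFIL3 also passed a step between LH times, and their promoters are not shown. Capitals mark the motif matches, and positions count back from 1 at the base before the start.
BHLHE41 (chr12:26125038-26125287, minus strand): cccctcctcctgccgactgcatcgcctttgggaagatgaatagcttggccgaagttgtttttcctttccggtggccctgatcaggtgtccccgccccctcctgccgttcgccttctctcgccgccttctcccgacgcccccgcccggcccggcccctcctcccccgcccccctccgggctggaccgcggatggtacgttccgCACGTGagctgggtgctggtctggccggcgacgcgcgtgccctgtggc
CRY2, downstream start (chr11:45847225-45847474, plus strand): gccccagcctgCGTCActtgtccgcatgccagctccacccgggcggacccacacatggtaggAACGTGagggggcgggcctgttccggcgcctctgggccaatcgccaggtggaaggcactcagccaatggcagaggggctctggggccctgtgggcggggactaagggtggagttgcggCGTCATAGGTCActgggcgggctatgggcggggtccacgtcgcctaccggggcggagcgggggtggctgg
PER2 (chr2:238288611-238288860, minus strand): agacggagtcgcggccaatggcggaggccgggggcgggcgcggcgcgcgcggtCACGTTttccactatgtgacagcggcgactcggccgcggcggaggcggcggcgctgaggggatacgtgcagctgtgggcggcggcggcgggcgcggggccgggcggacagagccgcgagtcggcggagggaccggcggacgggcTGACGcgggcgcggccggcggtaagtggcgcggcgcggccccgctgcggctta
NR1D2, downstream start (chr3:23945871-23946120, plus strand): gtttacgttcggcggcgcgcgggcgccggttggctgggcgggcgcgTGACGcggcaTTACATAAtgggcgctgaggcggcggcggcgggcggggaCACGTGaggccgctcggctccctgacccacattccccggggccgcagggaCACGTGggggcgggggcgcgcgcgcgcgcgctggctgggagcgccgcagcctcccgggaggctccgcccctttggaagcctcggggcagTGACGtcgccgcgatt

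BHLHE41 holds 1 E-box at positions 48 to 43. The downstream CRY2 start holds a CACGTT on the opposite strand at positions 188 to 183 and CRE half-sites at 239 to 235 and 70 to 66. Directly after the latter lies the ROR core at 65 to 59. The upstream CRY2 start, not shown, holds only a CRE half-site at 85 to 81. PER2 holds CACGTT at 197 to 192 and a CRE half-site at 53 to 49. The downstream NR1D2 start holds E-boxes at 155 to 150 and 105 to 100 and a D-box on the opposite strand at 194 to 187. Its CRE half-sites lie at 204 to 200 and 16 to 12. The upstream NR1D2 start, not shown, has no match to these motifs. Which start these cells use was not tested. Among all 15 member promoters, CACGTG lies in 3, of BHLHE40, BHLHE41 and NR1D2, against 6.34% of the 35116 promoters in the table. CACGTT lies in 4 (PER2, CRY1, CRY2 and CLOCK), against 4.55%. The CRE half-site lies in 6 promoters of 5 genes, against 21.2%, and the full CRE in 0, against 1.65%. The D-box lies in 2 (PER3 and NR1D2), against 0.834%, and the ROR core in 2 (NFIL3 and CRY2), against 1.61%. These are matches of letters, and binding was not measured.

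In these cells the 10 genes did not move as a block. Between LHR- and LHR+ cells CRY2 and PER2 rose and CLOCK fell by its main probe set. The passes of PER2 and CLOCK, unlike that of CRY2, ended when certain single arrays were left out. Within hours of LH the repressors took separate courses: PER2 rose at 4 h, fell back at 8 h and rose again at 20 h, CRY1 passed against LHR+ at 20 h alone, where it fell, and CRY2 passed in no comparison of an LH time with LHR+. BHLHE41 fell from 8 h on while its paralog BHLHE40 rose modestly. PER3 passed in no comparison.

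**Figure D1:**
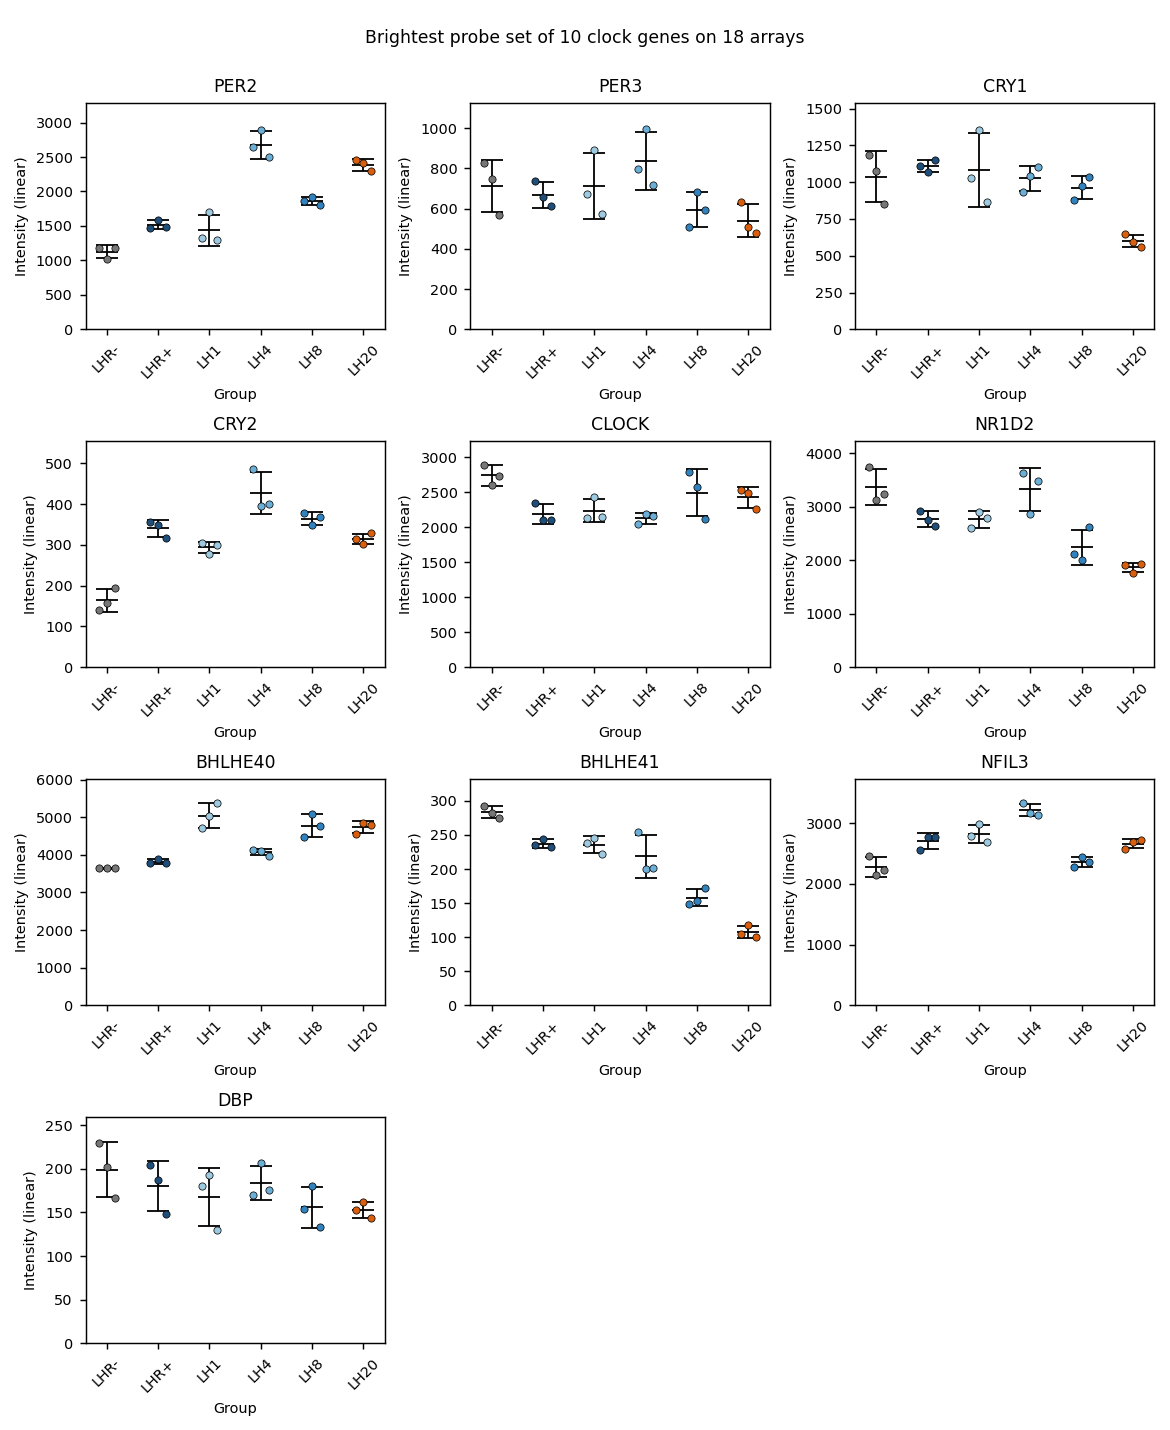
Intensity (linear axis from 0) of the probe set with the highest mean of each of the 10 genes. Points are single arrays, long bars the group mean and whiskers ± 1 SD over 3 arrays. PER2 is highest in LH4 and LH20, CRY1 and BHLHE41 are lowest in LH20, and CRY2 is lowest in LHR- cells.

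Of the 23 probe sets, 3 passed between LHR+ and LHR- (13.0%), where 10.6% of all probe sets passed. After 1 h of LH 1 passed (4.35%), against 0.786% of all, and after 4 h 1 again, against 6.01%. At 8 h 3 passed, against 5.79%, and at 20 h 9 passed (39.1%), against 23.9%. Between successive LH times the counts were 4 from 1 to 4 h (17.4%), where 4.58% of all passed, and 5 from 4 to 8 h (21.7%), against 4.14%. From 8 to 20 h 4 passed (17.4%), against 17% of all, a share near the background. Probe sets of 1 gene are not independent, and 7 of the 23 lay under the median intensity of all probe sets, 52.5. With only probe sets at or over that median, 9 of 16 member probe sets passed at 20 h, where 51.3% of all those kept passed. The study's criteria were met by 1 member probe set between LHR+ and LHR- (3.36% of all probe sets), 0 for LH1 (0.481%), 0 for LH4 (1.89%), 1 for LH8 (1.52%) and 4 for LH20 (7.06%). For the steps they were met by 0 from 1 to 4 h (1.52%), 0 from 4 to 8 h (1.17%) and 1 from 8 to 20 h (4.27%). Among the 4 for LH20 is a BHLHE41 probe set near the floor, 231242_at (mean 6.13), which rose while the main BHLHE41 probe set fell. The median log2 fold change of the 23 probe sets was -0.11 at 20 h, against 0.00 over all probe sets, and the median absolute change was 0.40 against 0.41. From 4 to 8 h the median was -0.25 against -0.03, and the median absolute change 0.44 against 0.27. The 4 comparisons with LHR+ share its 3 arrays, so their values are given side by side and not as separate support. Of the 30 passing results, 12 held when the fit was restricted to the 2 groups compared. Fewer of all probe sets passed in such fits too, for example 0.530% from 4 to 8 h.

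**Figure D2:**
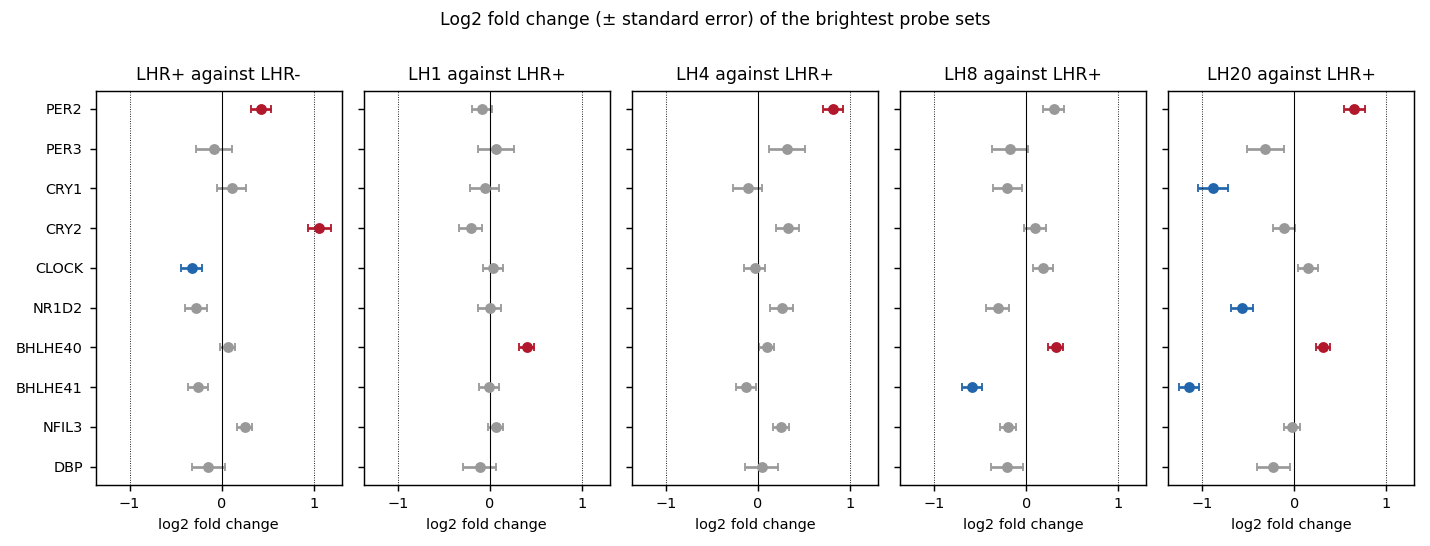
Log2 fold changes with their SE for the 10 genes (probe set with the highest mean), in 1 panel per comparison. Red points rose and blue points fell with an adjusted p under 0.1, grey points did not pass, and dotted lines mark a fold of 2. The largest changes are the rise of CRY2 between LHR- and LHR+ (1.06) and the fall of BHLHE41 at 20 h (-1.14).

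PER2 encodes a period protein that enters the nucleus with cryptochromes and represses CLOCK and BMAL1. Its main probe set, 205251_at, read 1181, 1025 and 1179 in LHR- cells and 1469, 1590 and 1492 in LHR+ cells. After LH it read 1326, 1697 and 1291 in LH1, 2647, 2891 and 2495 in LH4, 1864, 1924 and 1811 in LH8, and 2450, 2410 and 2294 in LH20. The order from low to high was LHR-, LH1, LHR+, LH8, LH20 and LH4, and of the neighbours in this order the arrays of LH1 and LHR+ overlapped and those of the others did not. Between LHR- and LHR+ cells PER2 rose by 0.43 ± 0.11 on the log2 scale (1.35-fold, adjusted p = 0.0315). The pass ended without LHR- replicate 2 (0.36, adjusted p = 0.122) and without LHR+ replicate 2 (0.39, adjusted p = 0.103). Between LHR+ and LH1 the difference was -0.09 (95% interval -0.33 to 0.15). At 4 h it rose by 0.82 ± 0.11 (1.76-fold, adjusted p = 0.000613), and at 20 h by 0.65 ± 0.11 (1.57-fold, adjusted p = 0.000875). At 8 h the difference of 0.30 ± 0.11 did not pass (adjusted p = 0.188), although the 3 arrays of LH8 lay above all 3 of LHR+.

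The course of PER2 between LH times was tested directly. From 1 to 4 h it rose by 0.91 ± 0.11 (1.87-fold, adjusted p = 0.000351), from 4 to 8 h it fell by 0.52 (SE 0.11, adjusted p = 0.025), and from 8 to 20 h it rose by 0.35 ± 0.11 (adjusted p = 0.0551). With limma fitted to only the 2 groups of each step, none of the 3 passed (adjusted p = 0.103, 0.183 and 0.134). The fall after 4 h did not pass without LH4 replicate 2 (-0.46, adjusted p = 0.117). The last step did not pass without LH8 replicate 1 or 3 or LH20 replicate 1 or 2, where it lay between 0.33 and 0.35 with adjusted p between 0.121 and 0.141. The other PER2 probe set, 208518_s_at, was dim, with group means between 12.1 ± 3.44 in LHR- and 44.9 ± 10.1 in LH4, and passed in no comparison. Over the 18 arrays, which share the group differences, the 2 probe sets correlated with r = 0.59, as a description.

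PER3, another period gene, stayed within the spread of its arrays. Its main probe set, 221045_s_at, had group means of 714 ± 131 in LHR-, 669 ± 64.4 in LHR+, 713 ± 165 in LH1, 837 ± 143 in LH4, 595 ± 85.5 in LH8 and 540 ± 81.0 in LH20. The arrays of every group overlapped those of its neighbours in the order of means. The step from 4 to 8 h was the only one of the 8 comparisons in which the 3 arrays of both groups were apart, with a log2 fold change of -0.49 ± 0.20 that did not pass (adjusted p = 0.273). At 20 h the difference from LHR+ was -0.31 (95% interval -0.74 to 0.11). The other 3 PER3 probe sets were dim, with means of 37.4, 5.59 and 1.97, and none passed.

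Cryptochromes are the partners of the period proteins and the direct repressors of CLOCK and BMAL1. CRY1 has 1 probe set, 209674_at. It read 1187, 1077 and 850.2 in LHR- cells, 1112, 1066 and 1149 in LHR+ cells, 1027, 1358 and 867 in LH1, 935, 1045 and 1102 in LH4, and 879, 978 and 1035 in LH8. In LH20 it read 645, 597 and 561, and these 3 arrays lay below every array of the other groups. CRY1 fell by 0.88 at 20 h against LHR+ (SE 0.16, 1.85-fold, adjusted p = 0.0013) and by 0.68 from 8 to 20 h (SE 0.16, 1.60-fold, adjusted p = 0.0123). It passed in none of the other 6 comparisons, and at 8 h the difference from LHR+ was -0.20 (95% interval -0.55 to 0.14).

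CRY2 also has 1 probe set, 212695_at, and its largest difference lay between LHR- and LHR+ cells. It read 141, 156 and 194 in LHR- cells against 356, 350 and 317 in LHR+ cells, so that the groups were far apart. The rise of 1.06 ± 0.12 (2.09-fold, adjusted p = 9.49e-05) met the study's criteria. After LH, CRY2 read 305, 279 and 299.8 in LH1, 486, 395 and 401 in LH4, 378, 348 and 367 in LH8, and 313, 303 and 328 in LH20. Every one of these 12 arrays lay above all LHR- arrays. Against LHR+ the value was -0.21 ± 0.12 at 1 h (adjusted p = 0.841) and 0.32 ± 0.12 at 4 h (adjusted p = 0.2), neither passing. The step from 1 to 4 h rose by 0.53 ± 0.12 (1.44-fold, adjusted p = 0.0289), and did not pass without LH4 replicate 1 (0.43, adjusted p = 0.123), the highest of the 3.

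CLOCK encodes the activator that, with BMAL1, drives the loop. Its main probe set, 227531_at, read 2891, 2599 and 2725 in LHR- cells and 2350, 2104 and 2096 in LHR+ cells, with no overlap. It fell by 0.33 (SE 0.11, 1.25-fold, adjusted p = 0.0982), and this pass ended when any 1 of the 6 LHR- and LHR+ arrays was left out, with values from -0.38 to -0.29 and adjusted p between 0.113 and 0.248. With LH the group means were 2235 ± 165, 2125 ± 76.9, 2489 ± 338 and 2423 ± 148 at 1, 4, 8 and 20 h, and none of them passed against LHR+. At 20 h the difference was 0.15 (95% interval -0.09 to 0.39). The CLOCK probe sets did not move alike. A dimmer one, 204980_at, read 334, 278 and 347 in LHR+ and 238, 222 and 268 in LH20, and fell by 0.40 (SE 0.15, adjusted p = 0.0977). That pass ended without LHR+ replicate 1 or 3 or LH20 replicate 1 or 2 (-0.38 to -0.33, adjusted p 0.189 to 0.26), with equal array medians (adjusted p = 0.125) and with a replicate block (adjusted p = 0.135). The remaining CLOCK probe sets, 225856_at and 217563_at, passed in no comparison, and over the 18 arrays 204980_at, 225856_at and 217563_at correlated with 227531_at with r = 0.16, 0.03 and 0.40.

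NR1D2 encodes REV-ERB beta, a nuclear receptor that binds ROR elements and represses BMAL1. Its main probe set, 225768_at, read 3744, 3124 and 3231 in LHR- cells, 2927, 2748 and 2632 in LHR+ cells and 2599, 2894 and 2796 in LH1. In LH4 it read 3627, 2866 and 3480, in LH8 2110, 2009 and 2615, and in LH20 1903, 1766 and 1929. The 3 arrays of LH20 were the lowest of all 18. NR1D2 fell by 0.57 at 20 h against LHR+ (SE 0.12, 1.48-fold, adjusted p = 0.00493). From 4 to 8 h it also fell by 0.57 (SE 0.12, adjusted p = 0.0273), and this step did not pass without LH4 replicate 1 or 3 or LH8 replicate 1 or 2 (-0.53 to -0.49, adjusted p 0.105 to 0.108). The rise of 0.26 ± 0.12 at 4 h against LHR+ did not pass (adjusted p = 0.359), and LH4 replicate 2 lay among the LHR+ arrays. The second probe set, 209750_at, had a wider spread, with 512, 369 and 519 in LHR+ and 430, 220 and 298 in LH20. Its difference of -0.60 ± 0.27 at 20 h did not pass (adjusted p = 0.158), and the 2 probe sets correlated with r = 0.60 over the arrays.

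BHLHE40 and BHLHE41, also named DEC1 and DEC2, encode repressors that bind the same E-boxes as CLOCK and BMAL1. The main BHLHE40 probe set, 201170_s_at, read 3649, 3642 and 3638 in LHR- cells and 3773, 3889 and 3781 in LHR+ cells. With LH it read 4712, 5045 and 5381 after 1 h, 4134, 4100 and 3979 after 4 h, 4471, 5083 and 4757 after 8 h, and 4558, 4841 and 4807 after 20 h. Every array with LH lay above all 6 arrays without it. BHLHE40 rose by 0.40 ± 0.08 at 1 h (1.32-fold, adjusted p = 0.0435), by 0.32 ± 0.08 at 8 h (1.25-fold, adjusted p = 0.0433) and by 0.31 ± 0.08 at 20 h (1.24-fold, adjusted p = 0.0142). At 4 h the difference of 0.09 ± 0.08 did not pass (adjusted p = 0.683), and the step from 1 to 4 h fell by 0.31 (SE 0.08, adjusted p = 0.0589).

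It was the only one of the 23 member probe sets to pass at 1 h, and that pass was weakly held. It ended with equal array medians (0.31, adjusted p = 0.376) and without LHR+ replicate 1, 2 or 3 or LH1 replicate 2 or 3 (0.35 to 0.42, adjusted p 0.119 to 0.204). The 8 h rise of BHLHE40 ended without LHR+ replicate 1 or 3 or LH8 replicate 2 (0.27 to 0.31, adjusted p 0.126 to 0.158). The fall from 1 to 4 h ended with equal array medians (-0.28, adjusted p = 0.23) and without any LH4 array or LH1 replicate 2 or 3 (-0.32 to -0.26, adjusted p 0.117 to 0.221). The second BHLHE40 probe set, 201169_s_at, read 174, 185 and 200 in LH1 against 150, 120 and 139 in LHR+, a difference of 0.45 ± 0.15 that did not pass (adjusted p = 0.395). From 1 to 4 h it fell by 0.55 (SE 0.15, adjusted p = 0.0738), which did not pass without any 1 of the LH1 arrays or LH4 replicate 2 or 3 (-0.59 to -0.49, adjusted p 0.134 to 0.231). The 2 probe sets correlated with r = 0.76 over the arrays.

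BHLHE41 went the other way. Its main probe set, 221530_s_at, read 292, 283 and 275 in LHR- cells, 236, 245 and 232 in LHR+ cells, 239, 246 and 222 in LH1, and 255, 200.0 and 201 in LH4. It then read 149, 153 and 172 in LH8 and 104, 118 and 100.2 in LH20, so the 3 LH20 arrays lay below LH8 and the LH8 arrays below all others. At 8 h BHLHE41 fell by 0.59 against LHR+ (SE 0.11, adjusted p = 0.00793). At 20 h it fell by 1.14 (SE 0.11, 2.21-fold, adjusted p = 7.39e-06), which met the study's criteria. The step from 8 to 20 h fell by 0.55 (SE 0.11, 1.47-fold, adjusted p = 0.00418). From 4 to 8 h it fell by 0.46 (SE 0.11, adjusted p = 0.0412), and this step did not pass with equal array medians (-0.36, adjusted p = 0.167) or without LH4 replicate 1 or LH8 replicate 1 or 2 (-0.44 to -0.34, adjusted p 0.122 to 0.148). Between LHR- and LHR+ the difference of -0.26 ± 0.11 did not pass (adjusted p = 0.209).

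A dimmer BHLHE41 probe set, 223185_s_at, also fell, with 84.4, 88.4 and 73.2 in LHR+, 36.7, 25.2 and 46.9 in LH8 and 33.8, 18.8 and 32.2 in LH20. It fell by 1.19 at 8 h (SE 0.25, 2.29-fold, adjusted p = 0.016) and by 1.54 at 20 h (SE 0.25, 2.92-fold, adjusted p = 0.000545), and both met the study's criteria. The other 2 BHLHE41 probe sets, 231242_at and 231243_s_at, were close to the floor of the array, with means of 6.13 and 3.91. The first of them read 6.55, 0.797 and 0.740 in LHR+ and 9.83, 15.4 and 16.5 in LH20, and passed at 20 h (adjusted p = 0.0353). This rise also met the study's criteria. At such low values the size of the difference depends on the pseudocount, and was 2.35 ± 0.72 with 1 and 0.69 with 16 on the log2 scale. That pass ended without LHR+ replicate 2 or 3 or LH20 replicate 3 (1.99 to 2.22, adjusted p 0.101 to 0.131). The probe set 231243_s_at passed in no comparison.

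Over the 18 arrays and among 9886 genes whose mean exceeded that of the median gene, those most like BHLHE41 on the log2 scale were SAPCD2 (r = 0.967), CCND1 (r = 0.965) and KLF4 (r = 0.965). CCND1 encodes cyclin D1, and KLF4 encodes a zinc finger transcription factor. The arrays share the group differences, so these correlations are a description of parallel levels.

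NFIL3 and DBP act on the same D-box element in opposite ways, NFIL3 as a repressor and DBP as an activator. NFIL3 has 1 probe set, 203574_at. It read 2467, 2143 and 2226 in LHR- cells, 2559, 2777 and 2778 in LHR+ cells, 2794, 2988 and 2691 in LH1, and 3326, 3172 and 3139 in LH4. It then read 2280, 2450 and 2356 in LH8 and 2574, 2689 and 2719 in LH20. The arrays of LH4 were the 3 highest of all 18. Of the 8 comparisons only the fall from 4 to 8 h passed, by 0.44 (SE 0.08, 1.36-fold, adjusted p = 0.0128), and with equal array medians it was -0.34 and did not pass (adjusted p = 0.113). The rise of 0.25 ± 0.08 at 4 h against LHR+ did not pass (adjusted p = 0.146), nor did the difference of 0.25 ± 0.08 between LHR+ and LHR- (adjusted p = 0.103). Both passed in the plain ANOVA, with 1 probe set per gene and with only probe sets at or over the median intensity. Larger shares of all features passed in those fits too.

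DBP is a direct output gene of CLOCK and BMAL1, and its 2 probe sets disagreed. The one with the higher mean, 209783_at, had group means of 199 ± 31.5 in LHR-, 180.1 ± 28.5 in LHR+, 168 ± 33.0 in LH1, 184 ± 19.4 in LH4, 156 ± 23.6 in LH8 and 153 ± 9.23 in LH20. It passed in no comparison, and at 20 h differed from LHR+ by -0.23 (95% interval -0.61 to 0.16). The other, 209782_s_at, read 53.7, 50.2 and 46.2 in LHR-, 84.9, 85.6 and 51.5 in LHR+, 59.3, 49.4 and 60.6 in LH1, and 55.9, 54.5 and 44.3 in LH4. It then read 93.5, 92.7 and 84.5 in LH8 and 243, 307 and 319 in LH20, where every array was more than any array of the other groups. At 20 h it rose by 1.98 ± 0.18 (3.95-fold, adjusted p = 5.77e-06), and from 8 to 20 h by 1.66 ± 0.18 (3.17-fold, adjusted p = 6.71e-05), and both met the study's criteria. From 4 to 8 h it rose by 0.80 ± 0.18 (1.74-fold, adjusted p = 0.0346), which did not pass without LH4 replicate 3 (0.70, adjusted p = 0.141) or LH8 replicate 1 (0.77, adjusted p = 0.116). The 2 probe sets correlated with r = -0.38 over the 18 arrays. Which parts of the DBP transcripts each probe set matches was not examined, so a single direction for DBP at 20 h is not given.

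**Figure D3:**
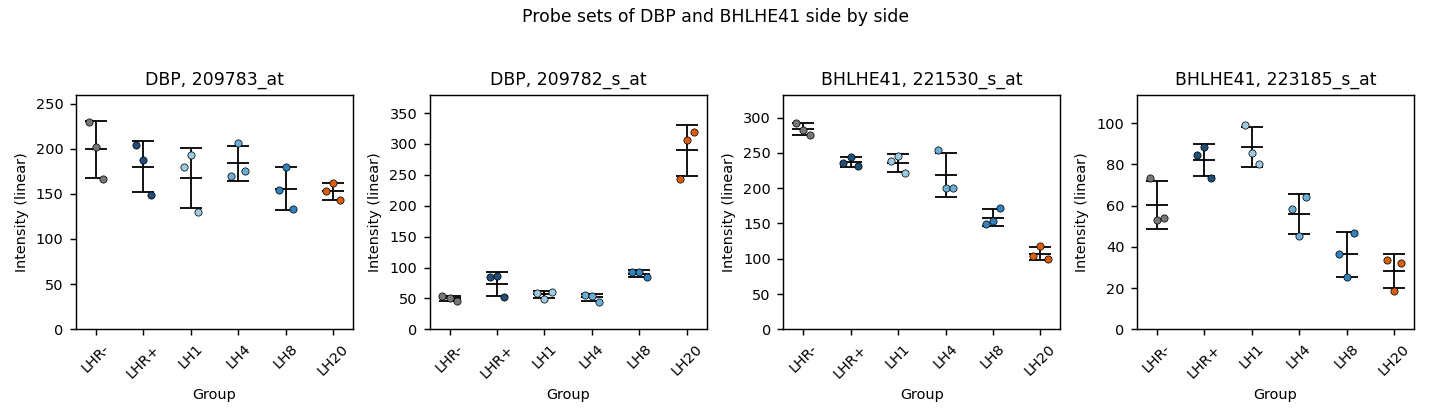
Intensity (linear axes from 0, scaled per panel) of 2 probe sets each of DBP and BHLHE41 on the 18 arrays, with group means and ± 1 SD. The 2 BHLHE41 probe sets are both lowest in LH20, whereas for DBP 209782_s_at rises to a mean of 290 in LH20 and 209783_at stays between 153 and 199.

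Another 20 genes of the clock were listed beside the members, and 16 of them, with 64 probe sets, could be followed. The other 4 were not analysed here. With 1 probe set per gene, 7 of the 16 passed between LHR- and LHR+ (5 up and 2 down), 0 at 1 h (2 with an unadjusted p under 0.05 in limma, and 0 passing in the plain ANOVA of the study's methods), 3 at 4 h (1 up and 2 down), 3 at 8 h (1 up and 2 down) and 10 at 20 h (3 up and 7 down). Over all genes, 14.3%, 0.723%, 7.91%, 7.21% and 29.7% passed in these comparisons. By probe sets the counts were 14, 1, 4, 6 and 25 of 64 (21.9%, 1.56%, 6.25%, 9.38% and 39.1%), beside 10.6%, 0.786%, 6.01%, 5.79% and 23.9% of all probe sets, so the share at 4 h was near that of all probe sets. From 1 to 4 h 0 of the 64 passed in limma (1 had an unadjusted p under 0.05, and 1 passed in the plain ANOVA), from 4 to 8 h 4, and from 8 to 20 h 20, beside 4.58%, 4.14% and 17% of all probe sets. At 20 h the median log2 fold change of the 64 was -0.19.

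NPAS2 and BMAL2 belong to the activating arm of the loop. NPAS2, which can stand in for CLOCK, read 858, 979 and 942 in LHR- and 1411, 1298 and 1337 in LHR+, a rise of 0.54 ± 0.10 (adjusted p = 0.00324). It then fell by 0.95 at 8 h (SE 0.10, adjusted p = 7.38e-05), with arrays between 648 and 729, and by 1.09 at 20 h (SE 0.10, adjusted p = 3.95e-06), with arrays between 578 and 675. BMAL2, a relative of BMAL1, fell at 20 h by 1.35 (SE 0.15, adjusted p = 2.95e-05) and 1.19 (SE 0.11, adjusted p = 6.39e-06) by its dimmer probe sets 220658_s_at and 224204_x_at, and by 0.57 (SE 0.13, adjusted p = 0.00662) by its brightest one, which did not pass earlier, with means of 1286 in LHR+ and 1355, 1385 and 1348 at 1, 4 and 8 h. CLOCK itself, by its main probe set, did not pass at 8 or 20 h. BMAL1 did not meet the study's criteria. Its brightest probe set, 209824_s_at, had means of 1398 ± 123 in LHR- and 1184 ± 16.2 in LHR+. With LH the means were 989 ± 63.1, 870 ± 22.8 and 922 ± 20.6 at 1, 4 and 8 h, and LH20 read 876, 958 and 855. Every array with LH lay below all LHR+ arrays. The dimmer 210971_s_at had means of 172 ± 11.6 in LHR+ and 159 ± 19.1 in LH8.

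CIART, a repressor of CLOCK and BMAL1, and FBXL21P, the human counterpart of a mouse ubiquitin ligase subunit for cryptochromes, were both higher in LHR+ than in LHR- cells. Both fell at 20 h of LH. CIART read 180.1, 243 and 211 in LHR-, 419, 376 and 416 in LHR+, 414, 459 and 384 in LH8 and 228, 205 and 180.2 in LH20. It rose by 0.94 ± 0.14 between LHR- and LHR+ (adjusted p = 0.000853), and fell by 0.98 at 20 h (SE 0.14, adjusted p = 0.000209) and by 1.04 from 8 to 20 h (SE 0.14, adjusted p = 0.000316). FBXL21P rose by 1.26 ± 0.26 between LHR- and LHR+ (adjusted p = 0.00802) and fell by 1.65 at 20 h (SE 0.26, adjusted p = 0.00044). RORA, an activator at ROR elements, rose between LHR- and LHR+ by 0.62 ± 0.17 (adjusted p = 0.0452) and at 20 h by 0.84 ± 0.17 (adjusted p = 0.00338) by its brightest probe set. Its dimmer probe set 235567_at rose by 1.07 ± 0.27 between LHR- and LHR+ (adjusted p = 0.029), a pass that ended without LHR+ replicate 3 (adjusted p = 0.11). For CSNK1A1, a kinase of period proteins, the probe set 226920_at (mean 966) fell by 1.08 at 20 h (SE 0.19, adjusted p = 0.000912), whereas its brightest one differed by 0.02. Its probe sets 213086_s_at, 213860_x_at and 206562_s_at also read lower on every LH20 array than on any LHR+ array. The last of these read 2064, 1459 and 2110 in LHR+ and 1080, 896 and 944 in LH20. No CSNK1A1 probe set read higher on every LH20 array than on any LHR+ array. HLF, RORB and BTRC met the study's criteria only by dim probe sets, whose group means reached at most 24.8, 8.50 and 6.78.

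**Figure D4:**
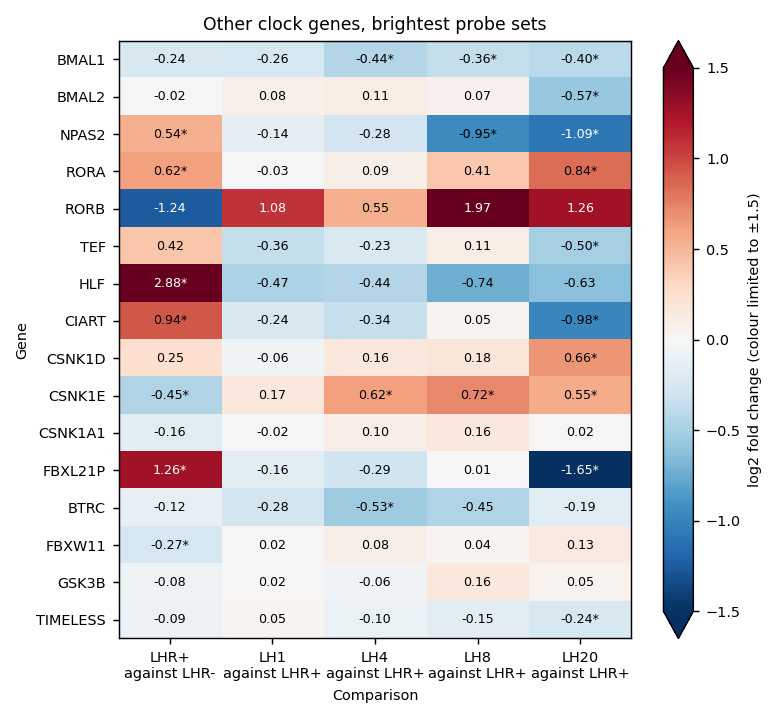
Log2 fold changes of 16 further clock genes (rows, probe set with the highest mean) in 5 comparisons (columns), with the colour scale limited to ±1.5. Stars mark an adjusted p under 0.1. NPAS2 falls at 8 and 20 h (-0.95 and -1.09), and CIART and FBXL21P rise between LHR- and LHR+ and fall at 20 h (-0.98 and -1.65).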

How the data were processed

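Gene expression was measured in 18 SKOV-3 samples, 3 numbered replicates in each of 6 groups. Affymetrix Human Genome U133 Plus 2.0 arrays were used after cDNA amplification of total RNA. The paper calls the replicates independent. The values used are the probe set intensities that the authors deposited, 1 column per array, linear and all above 0. The submitters' notes name PLIER for the summary of probes and the paper names RMA, so the method of summary and of scaling between arrays is uncertain. Versions are not given in the sources used here. No depth exists for arrays, and the 3 arrays per group limit the precision.

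Intensities were transformed as log2(value + 1), with no filter. All probe sets entered a linear model with the 6 group means, fitted by limma 3.58.1 in R 4.3.3 (lmFit, contrasts.fit, eBayes), with data.table (version 1.17.8) for reading, and p was adjusted by Benjamini-Hochberg over 54675 probe sets per comparison. limma took the place of the methods' ANOVA and Mann-Whitney tests, and the ANOVA was run as an alternative. Probe sets were named from the platform annotation, where 41097 list 1 symbol, 1801 several and 11777 none, and probe sets with several or none were left out of the gene lists. A gene is represented by its probe set with the highest mean. The procedure was tested on simulated data. Promoters came from RefSeq. Pandas 2.3.3 and matplotlib 3.10.9 in Python 3.11.15 were used for motifs and figures.

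All member probe sets are named. Other clock genes have values where they met the study's criteria, and genes similar in pattern were named for members whose main probe set met them against LHR+. BMAL1, the partner of CLOCK, was given values after these were seen. The members, lists and tests were chosen with earlier results of these data known. A batch could not be examined, since no scan or slide information was used here. Alternatives were another pseudocount, a filter, equal medians, quantile normalization, 1 probe set per gene, the ANOVA, the 2 groups alone, a replicate block, the study's criteria and leaving out each array.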

Additional observations from a re-analysis of the deposited data

Results flagged for a closer look

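Differences between successive LH times were tested as steps, in the limma fit over all probe sets and 18 arrays. Time in culture and time with LH cannot be told apart in these steps. Passing steps of the member probe sets are listed here once, each as a log2 fold change. From 1 to 4 h PER2 (205251_at) changed by 0.91, CRY2 (212695_at) by 0.53, and BHLHE40 by -0.31 (201170_s_at) and -0.55 (201169_s_at). From 4 to 8 h PER2 changed by -0.52, NR1D2 (225768_at) by -0.57, BHLHE41 (221530_s_at) by -0.46, NFIL3 (203574_at) by -0.44 and DBP (209782_s_at) by 0.80. From 8 to 20 h PER2 changed by 0.35, CRY1 (209674_at) by -0.68, BHLHE41 (221530_s_at) by -0.55 and DBP (209782_s_at) by 1.66. PER2 (205251_at) alone among the member probe sets passed in all 3 steps, with the signs up, down and up. None of its 3 steps passed with only the 2 groups compared, and the last 2 also depended on single arrays.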

How the results depend on the processing

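Of 30 passing results of member probe sets, 11 passed under every alternative run other than the study's stricter criteria, and none changed sign. All 30 passed with a pseudocount of 16 and with quantile normalization, 25 with equal array medians and 29 with the replicate number as a block. Some results that did not pass in the reported fit passed under an alternative, among them NFIL3 and CRY2 at 4 h against LHR+ with the filter. Deviations of arrays with the same replicate number correlated between groups with r from -0.20 to 0.22, over 0.1 in 13 of 45 pairs. Arrays of different numbers were not compared, so a pairing was not settled. Counts follow in the order LHR+ against LHR-, LH1, LH4, LH8 and LH20 against LHR+, LH4 against LH1, LH8 against LH4 and LH20 against LH8. With the replicate block 4, 1, 1, 4, 8, 4, 5 and 4 member probe sets passed. Of all probe sets 10.4%, 0.719%, 5.67%, 5.51%, 23.9%, 4.36%, 3.87% and 16.7% passed with it. In the reported fit the member counts were 3, 1, 1, 3, 9, 4, 5 and 4. Without dim probe sets (a mean under the median) 27338 probe sets were left, 16 of them of members. In the same order 7, 1, 4, 5, 9, 5, 6 and 7 of the 16 passed. The shares over all 27338 were 27.3%, 2.41%, 17.9%, 18.8%, 51.3%, 14.7%, 14.1% and 39.9%. By the study's criteria the member counts were 1, 0, 0, 1, 4, 0, 0 and 1. Equal array medians left 0 for LH1 and 3 for LH8 against LH4, beside 0.708% and 3.54% of all probe sets. With only the 2 groups compared, 0 passed for LH1, 2 for LH4, 0 for LH8, 0 for LH4 against LH1 and 0 for LH8 against LH4. The shares over all probe sets were 0.324%, 2.38%, 1.20%, 1.58% and 0.530% in these fits. With 1 probe set per gene 2 of 10 passed for LH4 and 5 for LH20, beside 10.9% and 34.1% of all genes. With the methods' ANOVA 2 passed for LH4, beside 7.56% of all probe sets. Leaving out 1 array gave 1 to 3, 0 to 1, 1 to 2, 2 to 3, 8 to 9, 2 to 3, 2 to 5 and 3 to 5 in the same order. The count became 1 for LHR+ against LHR- without LHR- replicate 2 (7.86% of all probe sets) or LHR+ replicate 2 (8.49%). It became 0 for LH1 without any LHR+ array or LH1 replicate 2 or 3 (0.525% to 0.638%). For LH4 it became 2 without LHR+ replicate 3 (4.09%). For LH4 against LH1 it became 2 without LH1 replicate 2 or any LH4 array (2.94% to 4.22%). For LH8 against LH4 it became 2 without LH8 replicate 1 (2.40%) and 3 without LH8 replicate 2 or LH4 replicate 1 or 3 (2.39% to 2.98%). The causes of these changes were not tested.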
